A study of Homo sapiens with 6 samples.

Results

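The cytosolic ribosomal protein genes are described here in LN229 cells, an established human glioblastoma line, after knockdown of GDH1. Members were taken by gene symbol, as every RPL or RPS symbol followed by a number with or without the suffix A, X, L or L1, together with RPLP0, RPLP1, RPLP2 and RPSA. Of 24976 symbols in the deposited count table, 84 matched by name, and the 80 with at least 10 counts in 3 or more libraries were kept, 49 of the large subunit and 31 of the small subunit. The rule uses names and a count minimum. RNA was collected from 3 control cultures, labelled wild type and named NC, and from 3 cultures labelled GDH1 knockdown, which the series design calls biological replicates. The protocol describes transfection by lipofectamine with either a small interfering RNA (siRNA) mixture or an NC mixture for 24 h in medium with fetal bovine serum. The sources used here leave out how many siRNAs the knockdown mixture held.

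The library totals ran from 31201100 to 35619614 counts. GLUD1, the gene for GDH1 (glutamate dehydrogenase, at chr10:87050202-87094843), had 3048, 2689 and 2813 counts in controls and 727, 877 and 933 after knockdown. Its level fell from 86.5 ± 1.59 to 24.6 ± 3.22 CPM (counts scaled to library size; SD, n = 3; edgeR quasi-likelihood test, adjusted p = 7.46e-07). Of the markers of glial and glioma cells, 8 of 8 passed the filter on low counts, with summed levels of 5340 to 5540 CPM in controls and 5330 to 6280 CPM after knockdown, most of it VIM. Single markers moved in both directions: SOX2 (log2 fold change 0.78), EGFR (0.40) and VIM (0.21) rose, and S100B (-1.13), OLIG2 (-1.10) and PTPRZ1 (-0.68) fell, while NES was not called and GFAP, a defining astrocyte marker, had 8 to 23 counts. Summed leukocyte markers were 13.8 to 17.1 CPM in controls and 26.5 to 29.5 CPM after knockdown, nearly all of it CD68. Neuronal markers summed to 326 to 363 and 230 to 324 CPM, epithelial markers to 6.36 to 7.65 and 3.77 to 5.13 CPM, and endothelial markers to 1.59 to 2.77 and 1.49 to 2.07 CPM, with CDH1 and CDH5 at 0 counts. The part of these markers in the results was not tested.

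The cytosolic ribosome translates nuclear-encoded mRNA in the cytoplasm. The small subunit binds and reads the mRNA, and the large subunit joins amino acids and passes the chain through its exit tunnel. Most subunit proteins are needed in equal numbers, and their mRNAs are among the most abundant of a growing cell. Many of these mRNAs start with a C followed by a run of pyrimidines, the terminal oligopyrimidine (TOP) motif, through which mTOR signalling and LARP1 control their translation and stability.

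The start sites are shown because the TOP motif is the feature that most of the members share. Each window holds the 15 bases before and the 15 bases from the annotated start in the RefSeq promoter table (GRCh38.p14), on the transcript's strand and 5′ to 3′. Capitals mark a C at the start and the pyrimidines that follow it without a break. The first 5 genes rose after knockdown and the last 4 were not called.
RPL21: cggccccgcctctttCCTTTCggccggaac
RPL36A: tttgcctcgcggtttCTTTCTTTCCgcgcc
RPS6: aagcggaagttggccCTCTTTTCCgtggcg
RPS27A: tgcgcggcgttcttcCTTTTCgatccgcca
RPL24: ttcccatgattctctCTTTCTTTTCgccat
RPL13: ttgcggggccgcttcCTTTCCgctcggctg
RPL18: accccagcccgttctCTCTTTCCggacctg
RPS16: gtggcccctagctttCCTTTTCCggttgcg
RPS19: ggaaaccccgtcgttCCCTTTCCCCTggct
The windows lie at chr13:27251543-27251572 (plus strand), chrX:101390996-101391025 (plus), chr9:19380222-19380251 (minus), chr2:55232673-55232702 (plus), chr3:101686704-101686733 (minus), chr16:89560667-89560696 (plus), chr19:48619164-48619193 (minus), chr19:39435935-39435964 (minus) and chr19:41860240-41860269 (plus), in the order shown.

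Of the 80 members, 65 matched the promoter table by symbol, and 46 of these (70.8%) had a C at the start followed by at least 4 pyrimidines. The same run stood at the start of 7.33% of 10897 tested symbols in that table and of 5.14% of its 27305 genes. The share was 29 of 41 in the large subunit and 17 of 24 in the small subunit. Among members that rose after knockdown it was 11 of 20 (55.0%), and among those not called 35 of 45 (77.8%). The motif was therefore present on both sides of the threshold, and the difference between these shares was not tested. Where a gene had several annotated starts, the one with the longest run was used, so a start without a run, as in RPS26, RPL6 and RPL9, describes the annotation and not the RNA ends in these cells.

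As a group, the ribosomal protein mRNAs took a slightly larger part of the RNA after knockdown. They held 2.99%, 3.05% and 3.17% of all counts in controls 1 to 3, and 3.35%, 3.31% and 3.20% in knockdowns 1 to 3. The lowest knockdown library lay just above the highest control. The means were 3.07% ± 0.0920 and 3.28% ± 0.0779 (SD, n = 3), a difference of 0.214 percentage points. The difference stayed between 0.173 and 0.264 percentage points when any library was left out. These are shares of the RNA of a bulk culture, so more ribosomal protein mRNA in each cell and less of other RNA, or a change in which cells were present, cannot be told apart.

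Both subunits shared the small increase, without overlap between the groups. Large subunit mRNAs went from 1.93% ± 0.0456 to 2.05% ± 0.0482 of counts and small subunit mRNAs from 1.14% ± 0.0480 to 1.23% ± 0.0297 (SD, n = 3). The count ratio of large to small subunit mRNAs was 1.735, 1.675 and 1.665 in controls and 1.669, 1.672 and 1.673 after knockdown. The group means of 1.69 ± 0.0379 and 1.67 ± 0.00208 differed by -0.0205, less than the spread of the controls. This difference rested on control 1, without which it was 0.00125. The knockdown libraries lay closer together than the controls did.

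**Figure D1:**
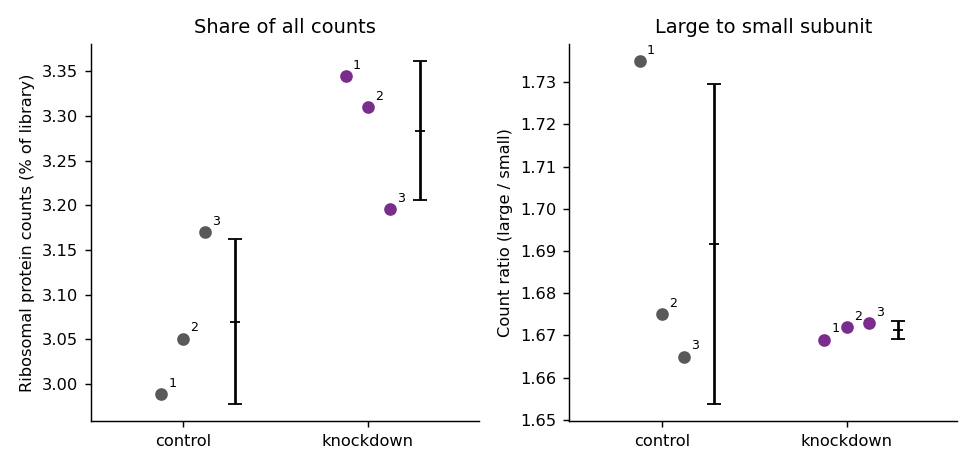
Ribosomal protein counts as a percentage of all counts of a library (left) and the ratio of large to small subunit counts (right), with the replicate number beside each of the 6 points and the mean ± SD (n = 3) as a bar. The knockdown shares of 3.20% to 3.35% lie above the control shares of 2.99% to 3.17%, and the ratios overlap around 1.67.

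Gene by gene, 25 of the 80 members (31.2%) rose after knockdown and 0 fell, in an edgeR quasi-likelihood test with Benjamini-Hochberg adjustment over all 15638 tested symbols and a threshold of 0.05. Of all tested symbols, 13.0% rose and 13.1% fell. An unadjusted p under 0.05 in either direction was found in 31 of the 80 members, RPS28 with a negative value, and in 6052 of the 15638 symbols, which is a similar share. The count of rises was 16 of 49 (32.7%) in the large subunit and 9 of 31 (29%) in the small subunit. The share of members that rose was above the background in both subunits, and no member fell.

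All 3 knockdown libraries lay above all 3 controls in 36 members, 22 large and 14 small, and below them in 0 (21.6% and 20.5% of all tested symbols). Log2 fold changes ran from -0.26 to 0.59, and 58 members had a positive value, 37 large and 21 small, against 7767 of the 15638 symbols. Their median was 0.10 in the large subunit and 0.12 in the small subunit, beside -0.003 over all tested symbols.

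The number of rises depended on single cultures. It was 9 without control 1 (background 7.31%), 14 without control 2 (8.94%), 14 without control 3 (7.27%), 32 without knockdown 1 (18.7%), 13 without knockdown 2 (7.46%) and 22 without knockdown 3 (11.1%). No leave-one-out fit had a member share of rises below its own background. Without knockdown 1, 6 members fell, among them RPL13, RPL13A, RPS15 and RPS28, where 20.5% of all tested symbols fell.

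**Figure D2:**
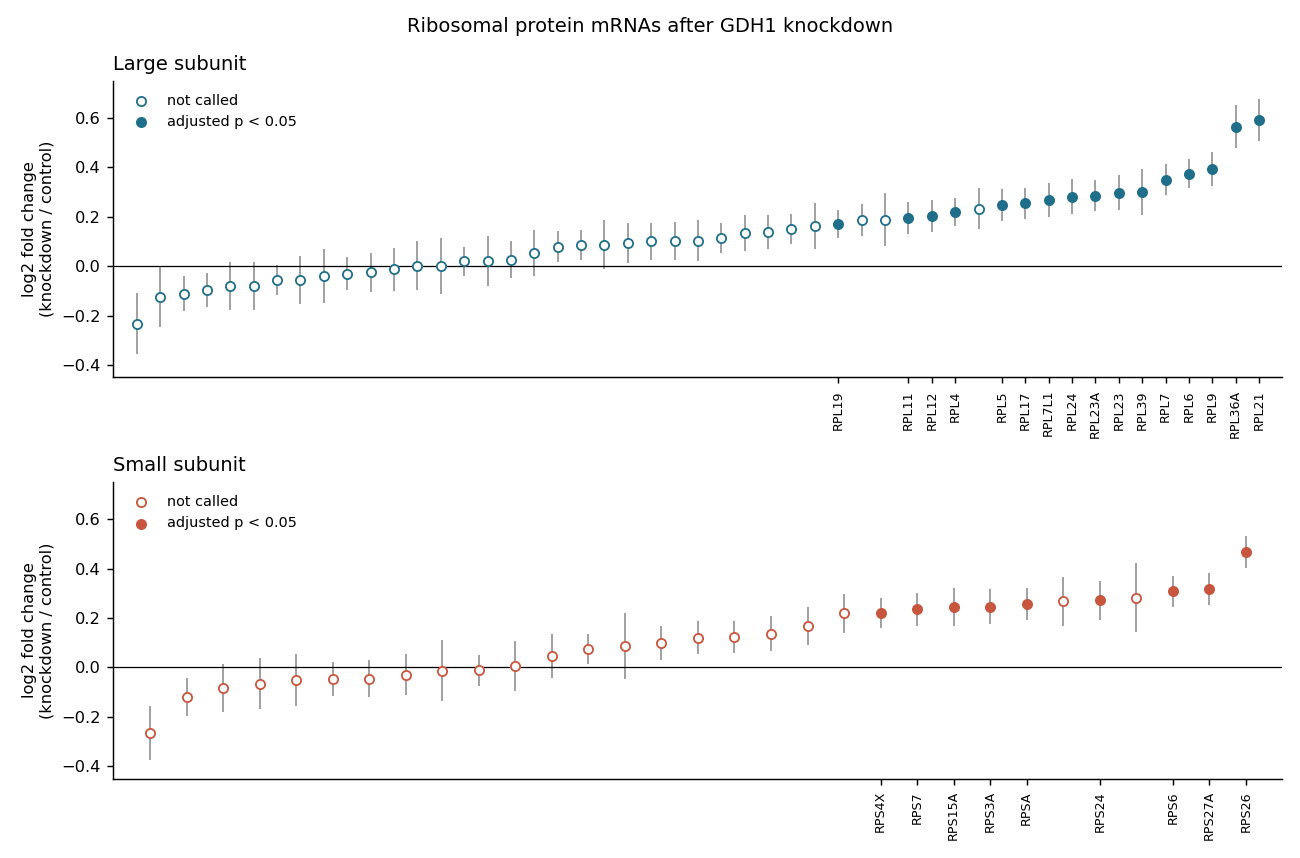
Log2 fold change (knockdown over control) of the 49 large and 31 small subunit members, ranked, with bars of 1 standard error and names under the called members. Filled points are the 16 large and 9 small subunit members that rose at an adjusted p under 0.05, and they fill the right-hand side of both panels up to 0.59 (RPL21) and 0.47 (RPS26).

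The members that rose furthest were RPL21, RPL36A and RPS26. RPL21 (chr13:27251558-27256568), a large subunit protein, had 188, 207 and 216 CPM in controls and 276, 305 and 340 CPM after knockdown. It rose 1.51-fold (log2 fold change 0.59, SE 0.09, adjusted p = 0.000556). RPL36A (chrX:101391011-101396155), a zinc-binding large subunit protein at the exit site for tRNA, had 146, 154 and 167 CPM against 205, 236 and 250 CPM. It rose 1.48-fold (0.57, SE 0.09, adjusted p = 0.000708). In both genes each knockdown culture stood above each control, and the knockdown cultures were further apart than the controls.

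RPS26 (chr12:56041918-56044697), which lines the mRNA exit channel of the small subunit and touches the mRNA upstream of the start codon, had 138, 142 and 149 CPM in controls and 201, 199 and 193 CPM after knockdown. Its 1.38-fold rise (log2 fold change 0.47, SE 0.07) had the smallest adjusted p of the members, 0.000454. The 3 knockdown cultures were nearly level, at 197 ± 4.38 CPM, against 143 ± 5.49 CPM in controls (SD, n = 3). RPL21, RPL36A and RPS26 were also the 3 members called in a test against a 1.2-fold change (edgeR glmTreat; 4.54% of all tested symbols rose by that test).

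A second tier of rises held abundant core proteins. RPL6 (chr12:112405181-112418835) had 506, 530 and 533 CPM in controls and 673, 670 and 692 CPM after knockdown, for 0.38 on the log2 scale (SE 0.06, adjusted p = 0.000904). RPL9, near the base of the stalk, rose from 269 ± 15.9 to 354 ± 16.7 CPM (0.39, SE 0.07, adjusted p = 0.00189). RPL7, an RNA-binding protein of the large subunit, rose from 463 ± 14.7 to 590 ± 25.4 CPM (0.35, SE 0.06, adjusted p = 0.00203; SD, n = 3). None of these 3 had a knockdown culture within the control range.

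RPS6 (chr9:19375715-19380236), whose phosphorylation by S6 kinases is the usual readout of mTORC1 activity, had 633, 683 and 708 CPM in controls and 819, 832 and 855 CPM after knockdown. Its mRNA rose by 0.31 on the log2 scale (SE 0.06, adjusted p = 0.00469). These counts measure its mRNA and say nothing of the phosphorylation. RPS27A (chr2:55231903-55235853), made as a fusion with ubiquitin, had 372, 399 and 398 CPM against 474, 475 and 507 CPM (0.32, SE 0.06, adjusted p = 0.00395).

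RPL21, RPL36A, RPL6, RPL7, RPL9, RPS26, RPS27A and RPS6 were the 8 of the 25 members called in each of the 6 leave-one-out fits. RPL23, RPL23A and RPSA were called in 5 of the 6. RPL23 and RPL23A lost the call without control 1 and without knockdown 2, respectively, at adjusted p = 0.0584 and 0.0540, and RPSA lost it without control 1 at adjusted p = 0.0609. The other 14 were called in 1 to 3 of the 6 fits, with positive values in every fit.

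**Figure D3:**
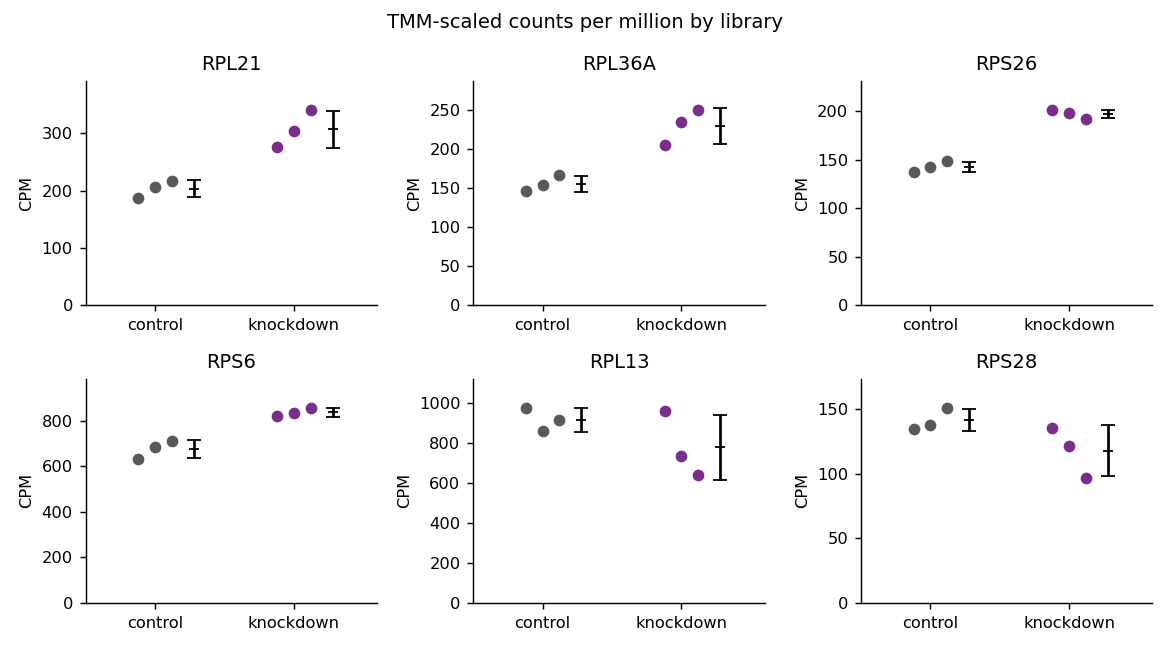
TMM-scaled levels (CPM) of 6 members in each library, with the mean ± SD (n = 3) as a bar and every axis starting at 0. The knockdown points of RPL21, RPL36A, RPS26 and RPS6 lie above all of their control points, whereas those of RPL13 and RPS28 spread from the control range down to 643 and 96.4 CPM.

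By position in the large subunit, both members of the pair that binds the 5S ribosomal RNA rose (2 of 2). Of the 80 members 31.2% rose, and of all tested symbols 13.0% rose, and the difference was not tested. RPL5, which with RPL11 and that RNA also binds MDM2 when ribosome assembly is disturbed, had 409, 428 and 429 CPM in controls and 487, 480 and 535 CPM after knockdown (log2 fold change 0.25, SE 0.07, adjusted p = 0.0175). RPL11 had 389, 396 and 413 CPM against 457, 482 and 432 CPM (0.19, SE 0.06, adjusted p = 0.0466). The groups did not overlap in either gene. RPL5 was called in 3 and RPL11 in 2 of the 6 leave-one-out fits.

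At the wall and rim of the exit tunnel, the share of rises was 50%. It was 31.2% over the 80 members and 13.0% over all tested symbols, and the difference was not tested. Here 5 of 10 members rose. They were RPL4, whose loop narrows the tunnel (1083 ± 23.9 to 1262 ± 32.7 CPM; 0.22, adjusted p = 0.0154), RPL39, a short protein of the tunnel wall (131 ± 11.5 to 162 ± 17.0 CPM; 0.30, adjusted p = 0.0339), RPL23A, a docking site of the signal recognition particle (334 ± 13.8 to 406 ± 12.8 CPM; 0.29, adjusted p = 0.00713), RPL17 (0.25, adjusted p = 0.0121) and RPL19 (0.17, adjusted p = 0.0462). SDs are over 3 cultures. Of the rest, RPL26 had a log2 fold change of 0.23 (adjusted p = 0.0614), RPL38 0.16, RPL31 0.14, RPL22 0.10 and RPL35 -0.08, none of them called. Of the 6 leave-one-out fits, RPL23A was called in 5, RPL4 and RPL17 in 3, and RPL19 and RPL39 in 1.

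On the acidic stalk, which recruits the GTP-hydrolysing translation factors, only RPL12 at its base rose, 1 of 4 members (25%). This share stands beside 31.2% of the 80 members and 13.0% of all tested symbols. RPL12 had 277, 279 and 299 CPM in controls and 337, 329 and 319 CPM after knockdown (log2 fold change 0.20, SE 0.06, adjusted p = 0.0353), with the call kept in 2 of 6 leave-one-out fits. The stalk proteins themselves had values of 0.15 for RPLP1 (adjusted p = 0.0935), 0.08 for RPLP0 (0.373) and -0.03 for RPLP2 (0.783). In RPLP1 each knockdown library stood above the controls, at 752 to 820 CPM against 683 to 723 CPM. Each stalk protein was called with 1 of the corrections for GC content and length described below. RPLP0 (0.148, adjusted p = 0.004) and RPLP2 (0.213, adjusted p = 0.00788) rose with the whole transcript correction. RPLP1 (0.217, adjusted p = 0.00117) rose with the coding sequence correction. RPL24, which bridges to the small subunit, rose from 174 ± 2.49 to 212 ± 15.3 CPM (0.28, adjusted p = 0.0134), with the call lost without control 1, 2 or 3 (adjusted p = 0.0503, 0.056 and 0.0572).

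In the small subunit, 0 of 4 tested members at the mRNA entry and decoding side rose or fell. Of the 80 members 31.2% rose, and of all tested symbols 13.0% rose and 13.1% fell. RPS3, at the entry channel, had 747, 726 and 779 CPM in controls and 808, 712 and 662 CPM after knockdown (log2 fold change -0.05, SE 0.08). RPS2, also at the entry channel, had -0.05, RPS15, which reaches the decoding centre, -0.07, and RPS23, which stands at the decoding centre itself, 0.14. In RPS2, RPS3 and RPS15 the first knockdown library was the highest of the 3 and the third the lowest, and the groups overlapped. RPS15 and RPS2 had a high coding GC content, of 63.0% and 61.8%. With the corrections for GC content and length described below, RPS15 rose by 0.22 (whole transcript, adjusted p = 8.04e-05) and 0.14 (coding sequence, adjusted p = 0.0393). RPS2 rose with the transcript correction alone, and RPS3 and RPS23 with neither. RPS9, the fifth protein of this side, missed the minimum of 10 counts in 3 libraries.

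On the platform and at the mRNA exit, 2 of 5 members (40%) rose, beside 31.2% of the 80 members and 13.0% of all tested symbols. Besides RPS26, the other was RPSA, which also exists at the cell surface as a laminin receptor. RPSA had 746, 766 and 777 CPM in controls and 979, 887 and 872 CPM after knockdown (log2 fold change 0.26, SE 0.06, adjusted p = 0.0129). RPS14, RPS21 and RPS28 were not called, at -0.01, -0.08 and -0.26. The widest gap within a structural neighbourhood was thus between RPS26 and RPS28, at 0.47 and -0.26.

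The remaining small subunit rises were between 0.22 and 0.27 on the log2 scale. RPS24 had 0.27 (SE 0.08, adjusted p = 0.0241), RPS3A 0.25 (0.0257), RPS15A 0.24 (0.0339), RPS7 0.23 (0.0211) and RPS4X 0.22 (0.0221). All 5 lost the call without control 1, at adjusted p from 0.0907 (RPS7) to 0.156 (RPS15A). RPS3A was counted in 2 rows of nearly equal counts.

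Of a list of 9 members mutated in Diamond-Blackfan anaemia, an inherited failure of red cell production, 5 (55.6%) rose, RPS7, RPS24, RPS26, RPL5 and RPL11. The list is incomplete. Of further members with a gene synonym for this disease, RPL17 and RPS15A rose. RPL15, RPL18, RPL26, RPL27, RPL35, RPS27, RPS28 and RPS29 were not called, with RPL35 at -0.08 and RPS28 at -0.26. RPS19, the one most often mutated in that disease, had 393, 388 and 404 CPM in controls and 470, 380 and 341 CPM after knockdown. Its knockdown values lay on both sides of the controls, and the log2 fold change was 0.01 (SE 0.10, adjusted p = 0.966). Of the 4 members on the X chromosome, RPL36A, RPL39 and RPS4X rose (75%). RPL10, which helps shape the peptidyl transferase centre, did not pass the test (0.03, adjusted p = 0.825). The shares of these small groups stand beside 31.2% of the 80 members and 13.0% of all tested symbols, and the differences were not tested.

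Some of the paralogs with the suffix L or L1 can stand in for their parent protein in some ribosomes or tissues. RPL3L, RPL10L and RPL39L were not kept: RPL10L and RPL39L had 0 counts in each library, which allows up to 3 counts, and RPL3L had 0 to 4. RPL22L1 was the least abundant member kept, with 813 to 1044 counts, and RPL26L1 the next, with 1027 to 1476. RPL7L1 rose from 143 ± 4.74 to 172 ± 8.50 CPM (SD, n = 3; log2 fold change 0.27, adjusted p = 0.0153), as did its parent RPL7, and without control 1 its adjusted p was 0.0798.

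RPL22L1 had 24.8, 27.2 and 24.8 CPM in controls and 24.8, 26.9 and 29.8 CPM after knockdown (0.09, adjusted p = 0.554), beside 0.10 for RPL22. RPL26L1 had 0.19 (adjusted p = 0.224), beside 0.23 for RPL26. RPS27L, a target of p53, had 0.27 (adjusted p = 0.0631), beside 0.28 for RPS27 (adjusted p = 0.166). In no pair did paralog and parent have values of opposite sign.

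Per kilobase of coding sequence, levels spread widely although the proteins are needed in equal numbers. The highest large subunit mean over the 6 libraries was 6910 CPM per kilobase for RPL41, whose protein has 25 codons, followed by RPLP1 at 2176, which enters the ribosome in more than 1 copy, and RPL13 at 1340. The lowest were the paralogs RPL22L1 at 72.1, RPL26L1 at 86.3 and RPL7L1 at 205. In the small subunit RPS27 stood at 1223, RPS2 at 1080 and RPS20 at 1048 CPM per kilobase, and RPS29 at 314, RPS25 at 457 and RPS27L at 459. Scaling by coding length overstates very short mRNAs such as RPL41, whose untranslated parts also collect reads. Across the 80 members, fold change showed almost no relation to mean level (Spearman correlation across genes -0.05), and genes are not independent replicates.

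Members with the most negative values were RPS28 and RPL13. RPS28 (chr19:8321496-8323340), at the mRNA exit, had 135, 138 and 151 CPM in controls and 135, 121 and 96.4 CPM after knockdown (log2 fold change -0.26, SE 0.11, adjusted p = 0.0991). RPL13 (chr16:89560657-89566829), an abundant large subunit protein, had 977, 859 and 914 CPM against 960, 738 and 643 CPM (-0.23, SE 0.12, adjusted p = 0.198). In both, knockdown 1 lay within the control range and knockdown 3 was the lowest of the 6 libraries. Without knockdown 1, both fell, with log2 fold changes of -0.405 for RPL13 (adjusted p = 0.000236) and -0.37 for RPS28 (adjusted p = 0.0046). With the corrections for GC content and length described below, over all 6 libraries, neither was called. RPL13 had -0.115 (whole transcript, adjusted p = 0.456) and -0.056 (coding sequence, adjusted p = 0.568). RPS28 had -0.216 (adjusted p = 0.0906) and -0.047 (adjusted p = 0.592), respectively.

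Closest to no change relative to their error were RPL36, RPL37 and RPL37A in the large subunit and RPS14, RPS18 and RPS19 in the small subunit, with log2 fold changes between -0.01 and 0.01. Their knockdown libraries were not always alike: RPL36 had 170, 149 and 124 CPM after knockdown against 147, 145 and 151 CPM in controls. In RPL36 and RPS19 the knockdown libraries lay on both sides of the controls, whereas those of RPS18 (297 to 312 CPM) and RPL37 (180 to 208 CPM) lay within the control range. The controls of RPS18 were uneven, at 252, 290 and 380 CPM, and its SE was 0.12. With the corrections for GC content and length described below, RPL36 did not stay near no change. It rose by 0.284 (whole transcript, adjusted p = 1.57e-05) and 0.151 (coding sequence, adjusted p = 0.0464). RPS14 and RPS19 rose with the transcript correction alone, and RPL37, RPL37A and RPS18 with neither.

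The members' fold changes followed the base composition of their coding sequences. The first 60 coding bases of 4 members at the ends of the range, chosen after their values were seen, are shown with a G or C at the third position of a codon in capitals (GENCODE 29 principal transcripts, GRCh38).
RPL21: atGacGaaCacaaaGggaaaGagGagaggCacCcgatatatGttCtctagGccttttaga
RPL36A: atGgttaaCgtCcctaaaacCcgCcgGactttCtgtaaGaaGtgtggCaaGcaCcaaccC
RPL13: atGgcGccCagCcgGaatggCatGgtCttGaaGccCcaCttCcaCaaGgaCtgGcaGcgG
RPS28: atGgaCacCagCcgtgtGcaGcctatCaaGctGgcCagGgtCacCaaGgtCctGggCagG
Of these 20 codons, 11 in RPL21 and 13 in RPL36A end in G or C, against 19 in RPL13 and 18 in RPS28. Over the whole coding sequence GC content was 43.5% in RPL21 and 47.2% in RPL36A, which rose, and 62.2% in RPL13 and 62.3% in RPS28, which had the most negative values. RPS26, with a GC content of 53.6%, was an exception among the members that rose furthest.

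In 4 groups of 20 members by coding GC content, the median log2 fold change was 0.24 at 40.4 to 46.7%, 0.23 at 46.8 to 50.7%, 0.05 at 50.9 to 54.9% and -0.04 at 54.9 to 63.0%. The members that rose numbered 9, 12, 4 and 0 in these groups. The median in the other tested genes of the same GC ranges was 0.13, 0.07, 0.01 and -0.14, and 22.0%, 15.8%, 12.7% and 7.75% of them rose. Both the members and the other genes had lower values at higher GC content, and each group of members had a higher median than the other genes of its range. This is a description of medians without a test. Across genes, the Spearman correlation of fold change with coding GC content was -0.68 over the 80 members and -0.46 over 12932 tested genes with a reference transcript. With coding length it was 0.09 and 0.04.

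**Figure D4:**
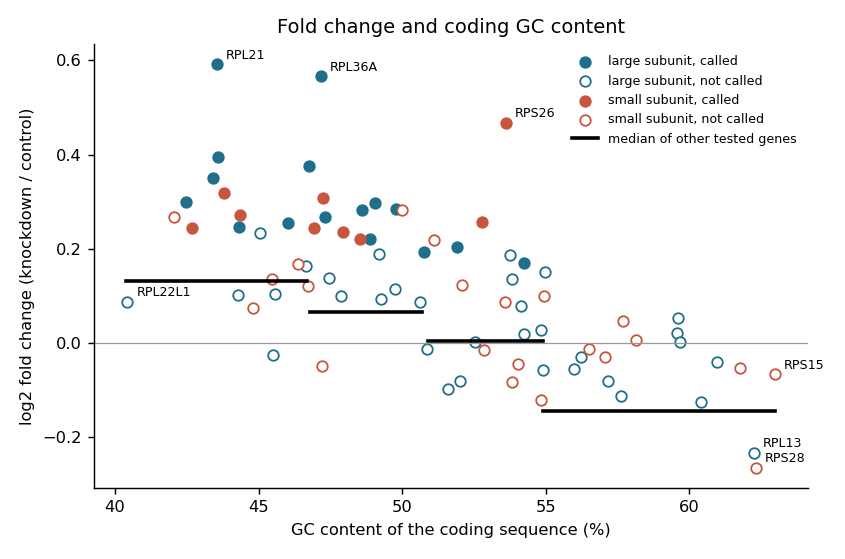
Log2 fold change (knockdown over control) of the 80 members against the GC content of their coding sequence, filled where called, with black lines for the median of other tested genes in the same 4 GC ranges. Points fall from RPL21 at 43.5% GC to RPL13 and RPS28 above 62%, and no member in the highest range was called.

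The knockdown libraries differed in this respect. As a median log2 difference from the control mean, the members of highest GC content stood at 0.17 in knockdown 1, -0.06 in knockdown 2 and -0.21 in knockdown 3, and at 0.01, -0.05 and 0.04 in the controls. The members of lowest GC content stood at 0.14, 0.24 and 0.22 in the knockdowns and at -0.10, 0.04 and 0.05 in the controls. The range of the deviations over the members was 0.808, 0.912 and 1.29 in knockdowns 1 to 3, against 0.332 to 0.443 in controls. The members of low GC content were thus above the controls in all 3 knockdown cultures, whereas those of high GC content were above them in 1 and below in the other 2.

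**Figure D5:**
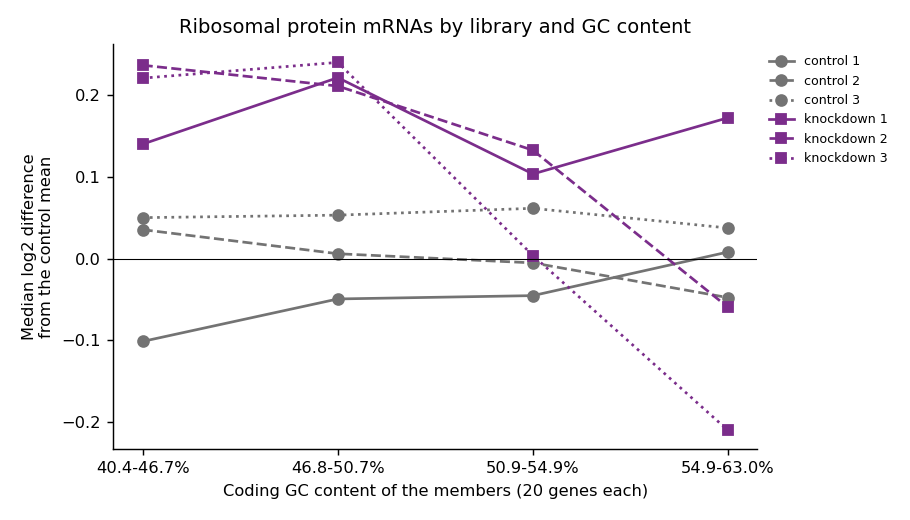
Median log2 difference from the control mean of the members in 4 ranges of coding GC content (20 members each), one line per library, controls as grey circles and knockdowns as purple squares. The 3 knockdown lines lie together at 0.14 to 0.24 in the lowest range and spread from 0.17 to -0.21 in the highest.

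GC content moves with the result, and its part in the result was not tested. When each library's trend with coding GC content and coding length was removed by a loess surface over all genes, an alternative chosen after seeing the data, 36 members rose, 22 large and 14 small, and 0 fell (background 16.4% higher and 14.3% lower). Of the 25 members called before, 24 were among them, and RPS3A was not (adjusted p = 0.0691). The medians of the 4 groups became 0.13, 0.17, 0.09 and 0.09, so the members' values lay closer together. With GC content and length of the whole transcript in the correction, 48 members rose, 28 large and 20 small, and 0 fell (background 18.8% higher and 15.6% lower), with all 25 among them. RPS2 and RPS14 then had positive values, of 0.12 (adjusted p = 0.0211) and 0.13 (adjusted p = 0.0265). Also called with the transcript correction were, among others, RPS15 (0.22, adjusted p = 8.04e-05), RPS19 (0.22, adjusted p = 0.000715) and RPL10 (0.12, adjusted p = 0.0164). With the coding correction RPS15 was called (0.14, adjusted p = 0.0393), and RPS19 and RPL10 were not (adjusted p = 0.183 and 0.312).

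Several genes of related function lie outside the naming rule. FAU, made as a fusion with the small subunit protein S30, had a log2 fold change of -0.02, RACK1, a scaffold on the small subunit, 0.06, and RPL36AL, the retrocopy of RPL36A, 0.08, beside 0.57 for RPL36A itself. None was called. RPL36AL had 54.6 to 55.0 CPM in controls and 55.8 to 58.8 CPM after knockdown.

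Translation factors whose mRNAs belong to the TOP class had 5 of 20 rises and 0 falls, with a median log2 fold change of 0.06 (the list holds FAU and RACK1). EEF1A1, the elongation factor that delivers tRNA, rose from 6280 ± 192 to 7540 ± 210 CPM (0.26, adjusted p = 0.00475), NPM1, a nucleolar chaperone, by 0.44, EIF3E by 0.42, EIF3H by 0.24 and VIM by 0.21. EEF2, the translocation factor, had -0.12 and was not called. EIF3H was not called without control 1 (adjusted p = 0.124).

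Of 42 ribosome biogenesis factors, 8 rose and 1 fell, with a median of 0.09. NCL, which binds nucleolar RNA, rose by 0.24, NOP58, of the RNA-methylating particle, by 0.28, and UTP15 and UTP20, of the small subunit processome, by 0.40 and 0.36, all 4 with a loss of the call in at least 1 leave-one-out fit. RRS1, which helps load the 5S RNA, fell by 0.41 on the log2 scale, opposite in direction to its partners RPL5 and RPL11.

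Of 14 chaperones and importers that ribosomal proteins use, some of them with many other clients, 5 rose and 0 fell, with a median of 0.13. BCCIP, a chaperone of RPL23, rose by 0.47, NACA and BTF3, which form the complex that meets nascent chains of many proteins at the exit tunnel, by 0.37 and 0.23, and the general importers IPO5 and KPNB1 by 0.27 and 0.24, the last 2 with adjusted p = 0.0717 and 0.0735 without control 1. Of 49 proteins of the large subunit of the mitochondrial ribosome, 9 rose and 1 fell (MRPL34), with a median of 0.07. MRPL1 rose by 0.67, MRPL39 by 0.60, MRPL58 by 0.46 and MRPL35 by 0.38. The share of rises was 25%, 19.0%, 35.7% and 18.4% in these 4 lists, beside 31.2% for the cytosolic ribosomal proteins and 13.0% of all tested symbols. The share of falls was 0%, 2.38%, 0% and 2.04%, beside 13.1% of all tested symbols.

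The counts of some members are uncertain because ribosomal protein genes have close copies. The table held 104 rows for the 84 symbols, 8 of which had several rows, for copies whose reads the authors' counting could split. RPS18 had 6 rows and RPS9 10. RPS25 had 2706, 374 and 2370 counts in controls in its first row and 3254, 5054 and 3450 in its second, and its summed level was 173, 173 and 177 CPM. The summed values of RPS25 were far more even than its rows. Those of RPS18 stayed uneven, at 252, 290 and 380 CPM in controls, with 2902, 2953 and 7588 control counts in its second row. RPL7A, called in its first row (log2 fold change 0.25, adjusted p = 0.0381) but not in its second (0.14, adjusted p = 0.225), was not called as a sum (0.19, adjusted p = 0.0548).

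RPS9 had 7, 13, 12, 7, 8 and 4 counts over its 10 rows, so its mRNA was hardly counted in any library, and no value for it is given. Its counts were the highest of a member left out by the minimum, and those of RPL22L1 the lowest of a member kept. Readthrough rows that share exons with members had 0 to 579 counts for RPL17-C18orf32 and 0 to 254 for RPL36A-HNRNPH2, small beside the counts of RPL17 and RPL36A. Adding pseudogene rows named for a member changed RPSA alone, through RPSAP58 with 1055 to 1952 counts, and the number of rises was again 25.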

How the data were processed

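The deposited file was 1 table of whole-number counts per gene row for all 6 libraries, with no normalization by the authors visible in the values. The build was GRCh38.p14 (submitters' processing notes), and the aligner, counting tool and strand setting were not given in the sources used here. All 28196 rows, 4956 of them newly assembled loci without a gene name (1.23 ± 0.00436% of control and 1.26 ± 0.0498% of knockdown counts), were summed by symbol. From these, low counts were removed (filterByExpr, leaving 15638 symbols), library sizes received TMM factors (trimmed mean of M values), and the groups were tested with edgeR 4.0.16 (glmQLFit, robust, and glmQLFTest, two-sided) and limma 3.58.1 in R 4.3.3, with Benjamini-Hochberg adjustment and a threshold of 0.05. The test was tried on simulated data. CPM values are TMM-scaled. The smallest member count was 813 and the largest 45021, so the spread between 3 cultures and not counting error limits precision.

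Groups came from the genotype labels and replicate numbers from the titles. No 2 libraries agreed within sampling noise. GC content and coding length were from GENCODE 29 and start windows from RefSeq. Alternatives were upper quartile or relative log expression scaling, a filter of 1 CPM in 3 libraries or none, DESeq2 1.42.0, limma-voom, a replicate block, leaving out each library, an adjusted p of 0.01, glmTreat at 1.2-fold, a single row per symbol, added pseudogene rows, and loess corrections (span 0.5) for GC content and length, of which those on the coding sequence were added after seeing the data.

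Genes were named by rule: paralogs with their parents, up to 10 called members per subunit with the smallest p, the 3 highest and 3 lowest per length, the 3 closest to no change, GLUD1, and up to 4 genes per list. Others were named to complete counts or as structural neighbours after their values were seen. The members and lists were chosen with earlier results of these data known. Some genes are not reported here by name.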

Additional observations from a re-analysis of the deposited data

How the results depend on the processing

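The number of members that rose was 25 to 29 with other scaling, other filters, DESeq2, limma-voom, added pseudogene rows or a replicate block. The background in these settings ran from 9.50% with no filter to 14.9% with the filter of 1 CPM in 3 libraries. With a single row per symbol, 22 members rose (background 10.7%). The replicate block gave 29 rises and 2 falls (14.5% and 16.1% of all tested symbols), 1 large (RPL13) and 1 small (RPS28, at the threshold). Same-numbered cultures had correlations of 0.065, 0.024 and -0.015 in their deviations from the group means, and not every culture correlated best with its own number, so the numbers were not taken to pair them. An adjusted p of 0.01 left 10 rises (7 large, 3 small; background 6.48%), and glmTreat 3 (2 large, 1 small; background 4.54%). The transcript correction gave 48 (28 large, 20 small) and medians of 0.148 (large) and 0.159 (small), and the coding correction 14 small subunit rises. The share difference was 0.196 percentage points over nuclear-encoded rows, 0.199 with single rows and 0.214 with pseudogene rows. Leaving out 1 library gave 9 to 32 rises (large 6 to 20, small 3 to 12), 0 to 6 falls (large 0 to 3, small 0 to 3), medians of 0.087 to 0.143 (large) and 0.088 to 0.172 (small), and a difference in the ratio of -0.0337 to 0.00125, reversed without control replicate 1. FAU changed sign under both corrections (0.16, adjusted p = 0.00245, and 0.13, adjusted p = 0.0491), and so did RPS14 (0.13 and 0.07) and RPS2 (0.12 and 0.13), called in the first alone. Over 59 named genes and 20 settings, 1003 values kept direction and side of the threshold, 99 lost the call, 25 gained it, 4 reversed into a call, and 49 uncalled values in 16 genes changed sign; the cause was not tested. With 3 cultures a group, an exact permutation test of 1 gene cannot go below p = 0.1.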
